A study of Mus musculus with 12 samples.

Results

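Axon guidance ligands and receptors were examined in sorted cells of the mouse olfactory mucosa, the tissue that carries the olfactory sensory neurons. The genes were chosen by symbol: the ephrins and Eph receptors, semaphorins other than Sema7a, plexins, neuropilins, Slits, Robos, netrins and Dcc. The rule found 63 of the 19938 genes tested, namely 8 ephrins, 13 Eph receptors, 19 semaphorins, 2 neuropilins, 9 plexins, 3 Slits, 4 Robos, 4 netrins and Dcc. RNA abundance was read on 12 Mouse Gene 1.0 ST arrays, and the deposited values are log2 signals per probe set.

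Axon guidance proteins steer growing axons through pairs of ligand and receptor on neighbouring cells or in the extracellular space. Ephrins bind Eph receptors, class 3 semaphorins bind neuropilins that signal through plexins, Slits bind Robos, and netrins bind Dcc and the Unc5 receptors. Olfactory sensory neurons are replaced throughout life and each sends 1 axon to the olfactory bulb, where the axons sort by the odorant receptor they carry. In mice the dorsal to ventral order of these axons depends on Robo2 with Slit1 and on Nrp2 with Sema3f, the anterior to posterior order on Nrp1 and Sema3a, and the local sorting of neighbouring axons on activity-dependent genes that include Epha5 and Efna5.

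All mice carried S100a5-tauGFP, a reporter in which S100a5 sequences drive a fusion of tau and green fluorescent protein; S100a5 is a calcium-binding protein of mature olfactory sensory neurons whose expression follows neuronal activity. Odor mice received a citrus accord at 5% and vehicle mice filtered air, in 10 s pulses every 20 min from 26 h onward of a 40 h stay, singly, in clean air chambers at 3.1 L per min. The 18 mice were of both sexes and 7 to 12 weeks old, and mucosa of 3 mice was pooled, dissociated and separated by FACS into a GFP-positive and a GFP-negative fraction. The 4 groups were odor GFP-positive, vehicle GFP-positive, odor GFP-negative and vehicle GFP-negative cells, each with 3 arrays from 3 pools. Odor pools are numbered 2, 3 and 4 and vehicle pools 1, 2 and 4, and values of a group are given in that order. Neither the make-up of each pool by sex nor the scaling between arrays before deposit is stated in the sources used here.

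The sort was checked with S100a5, Omp and marker lists. S100a5 had a log2 signal of 6.41, 6.34 and 6.32 in odor GFP-positive cells and 6.48, 6.29 and 6.29 in vehicle GFP-positive cells, against 6.16, 6.14 and 5.83 in odor GFP-negative cells and 6.23, 6.08 and 6.18 in vehicle GFP-negative cells. It was higher in GFP-positive cells by 0.31 (SE 0.0951, limma, adjusted p = 0.0166) in odor mice, and its difference of 0.19 in vehicle mice did not pass the test (adjusted p = 0.123). Its signal lay close to the lower quartile of all tested genes, which was 6.25 to 6.41 over the 12 arrays, so the reporter's own gene is a weak check here. Of 10 mature sensory neuron markers 9 were higher in GFP-positive cells in both treatments, with median differences of 0.54 in odor and 0.50 in vehicle mice, and Omp, the classical marker of these neurons, was higher by 0.33 and 0.31. Omp was at 13.45 to 13.51 in GFP-positive cells and still at 13.04 to 13.29 in GFP-negative cells. All 10 macrophage markers, all 10 neutrophil markers, all 7 sustentacular cell markers and 7 of 8 progenitor markers were lower in GFP-positive cells in both treatments. Other lists were less uniform. Lower in both were 4 of 10 endothelial, 3 of 9 fibroblast and mural and 3 of 7 horizontal basal cell markers, and none of these markers passed as higher. Of all genes tested, 25.6% were higher and 16.5% lower in both treatments. Markers of respiratory ciliated cells were higher for 4 of 6, with median differences of 0.52 and 0.47, and of 10 immature neuron markers 5 were higher and 4 lower.

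When GFP-positive cells were set against GFP-negative cells, 27 of the 63 guidance genes were higher and 16 lower in odor mice, and 24 were higher and 17 lower in vehicle mice (limma, Benjamini-Hochberg adjusted p under 0.05 over all 19938 genes). These are 68.3% and 65.1% of the members, beside 52.2% of all genes tested in odor mice and 48.0% in vehicle mice. Of all genes 33.5% were higher and 18.7% lower in odor mice, and 29.9% were higher and 18.2% lower in vehicle mice. The median difference of the members was 0.14 in odor and 0.10 in vehicle mice, against 0.13 and 0.06 over all genes. In both treatments 24 members were higher and 15 lower, 18 passed in neither, 4 passed only in odor mice and 2 only in vehicle mice, and 0 passed in opposite directions. Calls in both treatments thus cover 61.9% of the members, beside 42.1% of all genes (25.6% higher and 16.5% lower). The counts by family given below are to be read beside these shares of all genes, and most families are small. The fractions did not overlap for 44 members (69.8%) in odor mice and 48 (76.2%) in vehicle mice, against 60.7% and 57.4% of all genes. Among the genes that were higher, Epha5, Epha7, Sema3e, Plxna3 and Slit1 carried the larger differences. Among those that were lower, Sema4a and Plxnc1 did, followed by Efnb2 at -0.76 in odor and -0.99 in vehicle mice.

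**Figure D1:**
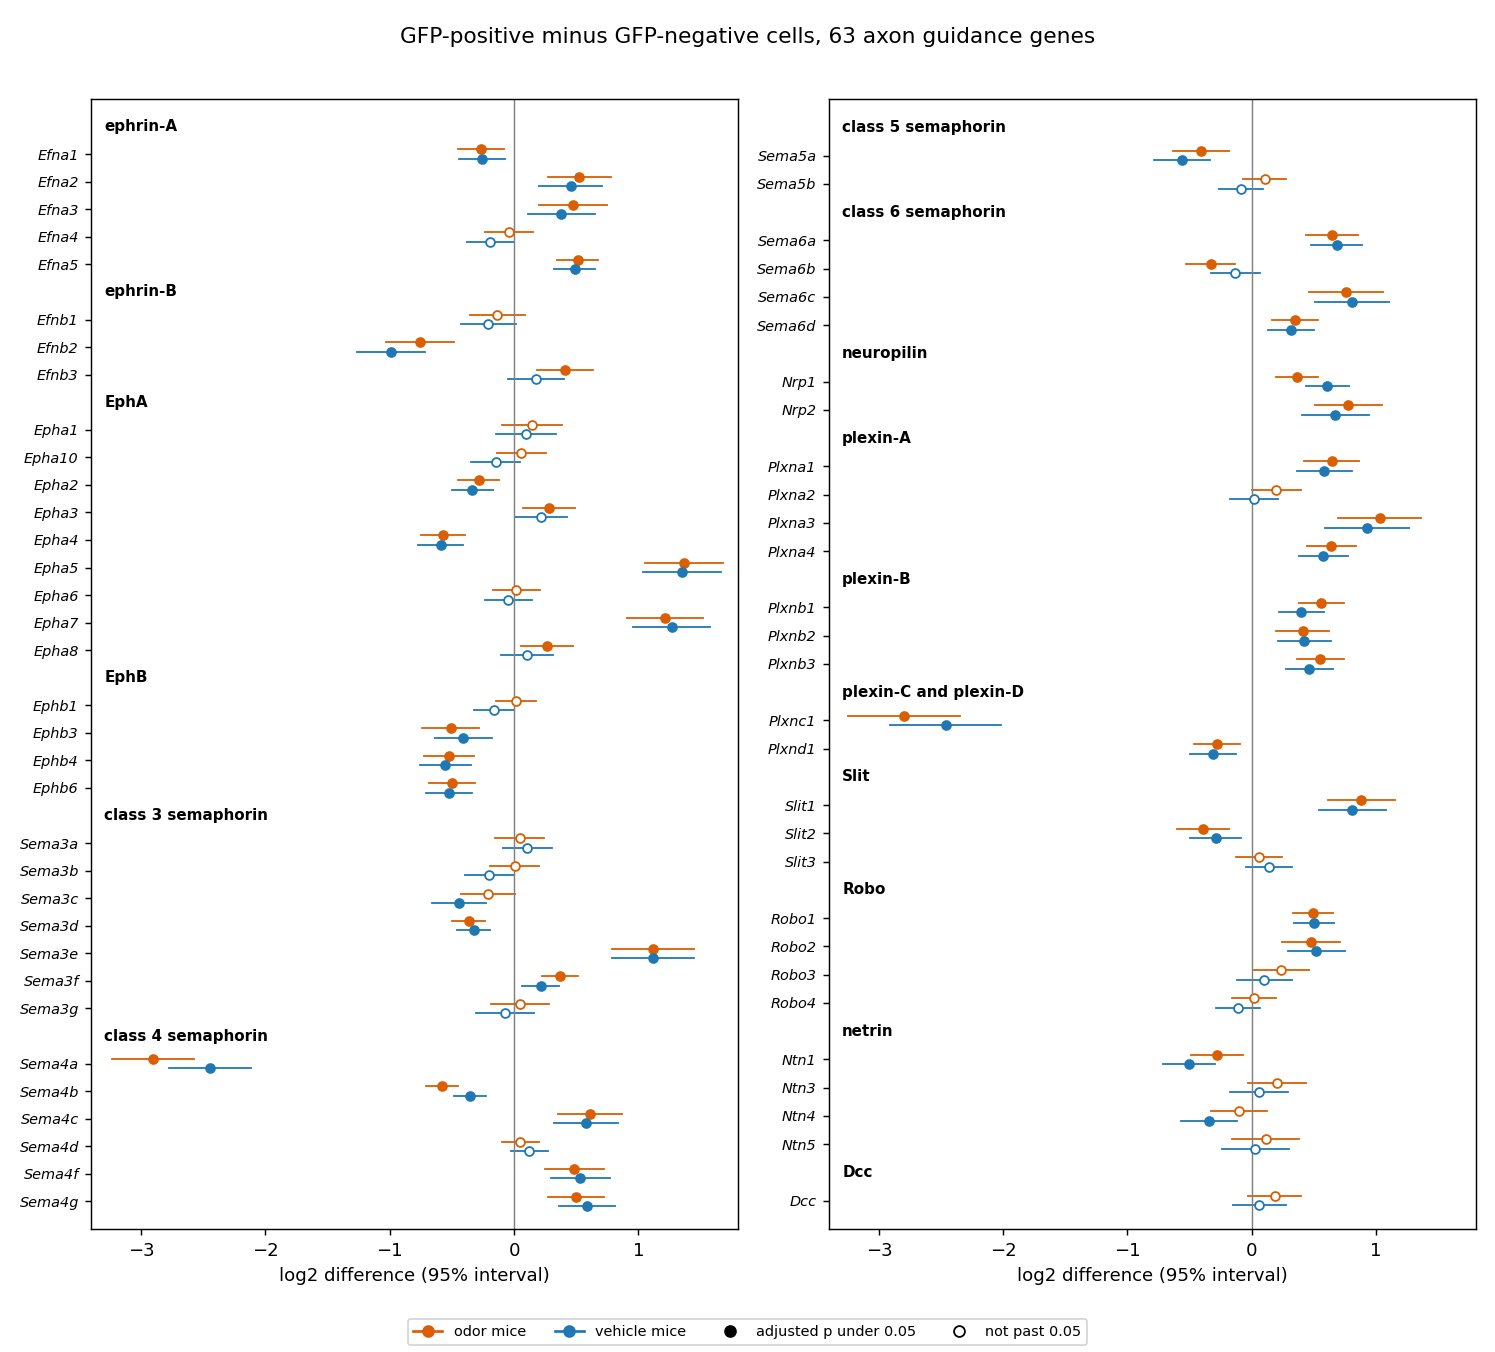
Log2 difference of GFP-positive minus GFP-negative cells for all 63 members, grouped by family, in odor and in vehicle mice; bars are 95% intervals of the limma fit and filled points passed an adjusted p of 0.05. Sema4a and Plxnc1 lie far to the left at -2.90 and -2.80 in odor mice, while Epha5 lies farthest to the right at 1.37.

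In RNA from pooled cells, fewer cells of a type and less RNA per cell cannot be told apart, and this holds for every difference given below. The values are relative to the other genes of each array, so a changed scaling moves them all. With each array centred on its median, 34 members were higher and 11 lower in odor mice and 30 and 12 in vehicle mice. The share called was then 71.4% of the members against 74.0% of all genes in odor mice, and 66.7% against 61.1% in vehicle mice, so under this scaling the members' share in odor mice was no longer above that of all genes. After cyclic loess the counts were 22 higher and 19 lower in odor and 20 and 19 in vehicle mice, 65.1% and 61.9% of the members against 45.7% and 44.1% of all genes. Over all genes the median sort difference was 0.28 and 0.20 under median centring and 0.00 and -0.01 after cyclic loess, in odor and in vehicle mice. Of the 24 members that were higher in both treatments, 18 passed in the same direction in both under each of the 3 rescalings tried (a second quantile normalization, median centring, cyclic loess), and of the 15 that were lower, 10 did.

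Members of both ephrin classes moved in both directions. Ephrin-A ligands are held in the membrane by a lipid anchor, and 3 of the 5 measured, Efna2, Efna3 and Efna5, were higher in GFP-positive cells in both treatments, while Efna1 was lower and Efna4 passed in neither. Efna5, the ligand paired with Epha5 in local axon sorting, had a log2 signal of 11.16, 11.13 and 11.15 in odor GFP-positive cells and 11.30, 11.24 and 11.37 in vehicle GFP-positive cells, against 10.77, 10.62 and 10.52 in odor GFP-negative cells and 10.88, 10.83 and 10.74 in vehicle GFP-negative cells. The fractions did not overlap in either treatment, and Efna5 was higher by 0.51 (SE 0.0762, adjusted p = 0.000147) in odor and 0.49 (adjusted p = 0.000222) in vehicle mice.

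Efna3, another ephrin-A of the sensory neurons, had 12.84, 12.84 and 12.73 in odor GFP-positive cells and 12.86, 12.85 and 12.75 in vehicle GFP-positive cells, against 12.56, 12.28 and 12.15 in odor GFP-negative cells and 12.46, 12.68 and 12.18 in vehicle GFP-negative cells. It was higher by 0.47 (SE 0.124, adjusted p = 0.00662) in odor and 0.38 (adjusted p = 0.0225) in vehicle mice. The call for Efna3 ended after cyclic loess, with 0.16 and 0.10, and in vehicle mice under a second quantile normalization (0.27, adjusted p = 0.0921) or without vehicle GFP-positive replicate 1 (adjusted p = 0.0662), vehicle GFP-positive replicate 2 (0.0642) or vehicle GFP-negative replicate 4 (0.104). Efna2 was higher by 0.53 in odor and 0.46 in vehicle mice. Efna1 was lower, at -0.26 in both treatments, and did not pass in either under median centring.

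Of the 3 ephrin-B ligands, which span the membrane, Efnb2 was lower in GFP-positive cells in both treatments, Efnb3 was higher only in odor mice (0.41, adjusted p = 0.00573, against 0.18, adjusted p = 0.194, in vehicle mice), and Efnb1 passed in neither. Efnb2, known for its role in arteries and in guidance, had 6.58, 6.84 and 6.88 in odor GFP-positive cells and 6.54, 6.79 and 6.53 in vehicle GFP-positive cells, against 7.26, 7.75 and 7.56 in odor GFP-negative cells and 7.63, 7.69 and 7.51 in vehicle GFP-negative cells. It was lower, at -0.76 (SE 0.126, adjusted p = 0.000323) in odor and -0.99 (adjusted p = 4.76e-05) in vehicle mice. Every GFP-positive pool lay below every GFP-negative pool.

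Eph receptors are receptor tyrosine kinases, and their members moved in both directions. Epha5 and Epha7 were higher in GFP-positive cells in both treatments, Epha2, Epha4, Ephb3, Ephb4 and Ephb6 were lower in both, Epha3 and Epha8 were higher only in odor mice (0.28 and 0.26, against 0.21 and 0.11 in vehicle mice), and Epha1, Epha6, Epha10 and Ephb1 passed in neither. No measured EphB receptor was higher in either treatment. Ephb2, which the rule would also take, had no single-symbol probe set and was not measured. Epha3 and Epha6 stayed below the lower quartile of the tested genes on all 12 arrays.

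Epha5 had a log2 signal of 9.71, 9.73 and 9.79 in odor GFP-positive cells and 9.63, 9.67 and 9.88 in vehicle GFP-positive cells, against 8.68, 8.22 and 8.22 in odor GFP-negative cells and 8.55, 8.51 and 8.07 in vehicle GFP-negative cells. That is 2.58-fold higher in odor mice (log2 1.37, SE 0.144, adjusted p = 8.66e-06) and 2.55-fold in vehicle mice (log2 1.35, adjusted p = 1.07e-05). The GFP-positive arrays were tight and the GFP-negative arrays spread, so the difference within a pool ran between 1.03 and 1.57 in odor and between 1.08 and 1.81 in vehicle mice. Epha7, a receptor for ephrin-A ligands, had 9.51, 9.58 and 9.77 in odor GFP-positive cells and 9.55, 9.78 and 9.73 in vehicle GFP-positive cells, against 8.62, 8.27 and 8.33 in odor GFP-negative cells and 8.55, 8.62 and 8.08 in vehicle GFP-negative cells. It was 2.32-fold higher in odor mice (adjusted p = 2.17e-05) and 2.41-fold in vehicle mice (adjusted p = 1.63e-05), again without overlap.

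Epha4, which binds ephrins of both classes, had 6.42, 6.46 and 6.45 in odor GFP-positive cells and 6.37, 6.49 and 6.38 in vehicle GFP-positive cells, against 6.89, 7.07 and 7.08 in odor GFP-negative cells and 6.98, 6.89 and 7.14 in vehicle GFP-negative cells. It was lower, at -0.57 (SE 0.0819, adjusted p = 0.000111) in odor and -0.59 (adjusted p = 9.27e-05) in vehicle mice. Ephb4, the receptor of Efnb2 on veins, was lower, at -0.52 and -0.55 (SE 0.0939, adjusted p = 0.000553 and 0.000389), so ligand and receptor of this pair were both lower in GFP-positive cells. The other EphB receptors that fell were Ephb3, at -0.51 and -0.41, and Ephb6, which lacks kinase activity, at -0.50 and -0.53. Epha2, a receptor of epithelia, was at -0.28 and -0.34 and did not pass in either treatment under median centring.

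**Figure D2:**
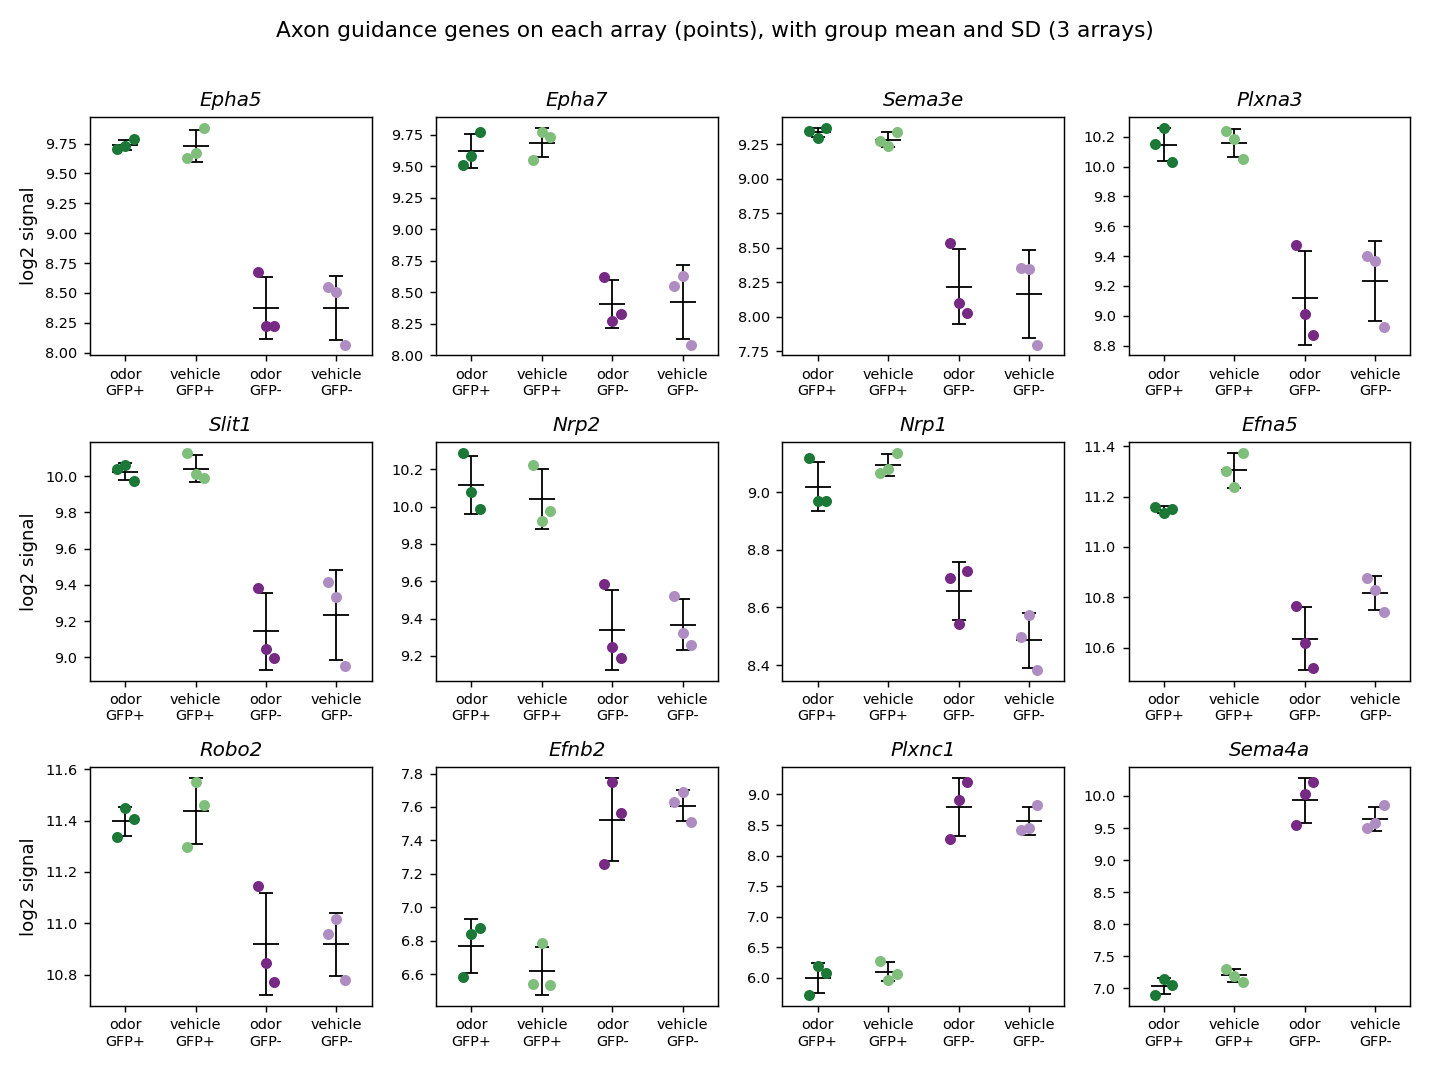
Log2 signal of named guidance genes on each of the 12 arrays, with odor and vehicle GFP-positive groups left of the GFP-negative groups; points are arrays and the bars give the mean and SD of 3 arrays. Epha5 sits between 9.63 and 9.88 in GFP-positive cells and between 8.07 and 8.68 in GFP-negative cells, whereas Sema4a sits between 6.90 and 7.30 in GFP-positive cells and between 9.50 and 10.21 in GFP-negative cells.

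The promoters of Epha5, Sema3e, Plxna3 and Plxnc1 are shown as examples of members with large sort differences, and that of Plxnb1 because it holds the Olf1 and Ebf site described below; each window runs from 250 bases before to 50 bases after the RefSeq start (build GRCm38.p6, 5′ to 3′ on the gene's strand). Epha5 is at chr5:84417333-84417632 on the minus strand, Sema3e at chr5:14025026-14025325 on the plus strand, Plxna3 at chrX:74328816-74329115 on the plus strand, Plxnb1 at chr9:109095186-109095485 on the plus strand and Plxnc1 at chr10:94944796-94945095 on the minus strand. Capitals mark matches, on either strand, to 3 motifs: the Olf1 and Ebf site known from olfactory neuron genes, TCCC and GGGA with any 2 bases between them; TAATTA, a homeodomain core; and AGGAAG, an Ets core of the kind bound by factors of blood cells.
Epha5: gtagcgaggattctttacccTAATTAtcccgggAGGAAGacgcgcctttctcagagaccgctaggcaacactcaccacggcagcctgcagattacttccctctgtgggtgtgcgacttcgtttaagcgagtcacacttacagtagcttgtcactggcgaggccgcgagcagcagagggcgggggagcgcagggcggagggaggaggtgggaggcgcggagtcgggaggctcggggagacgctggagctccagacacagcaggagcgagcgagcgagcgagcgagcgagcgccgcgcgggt
Sema3e: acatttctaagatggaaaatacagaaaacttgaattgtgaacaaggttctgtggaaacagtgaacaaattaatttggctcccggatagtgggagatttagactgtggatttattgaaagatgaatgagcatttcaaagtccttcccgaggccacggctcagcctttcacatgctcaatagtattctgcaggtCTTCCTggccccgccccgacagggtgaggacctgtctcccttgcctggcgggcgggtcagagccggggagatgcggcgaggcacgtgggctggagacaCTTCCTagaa
Plxna3: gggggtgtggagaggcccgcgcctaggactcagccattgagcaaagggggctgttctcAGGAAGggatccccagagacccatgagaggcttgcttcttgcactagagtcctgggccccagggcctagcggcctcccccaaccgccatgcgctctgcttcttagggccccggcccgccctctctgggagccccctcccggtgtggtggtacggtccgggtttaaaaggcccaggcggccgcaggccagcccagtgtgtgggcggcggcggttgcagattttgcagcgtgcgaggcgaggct
Plxnb1: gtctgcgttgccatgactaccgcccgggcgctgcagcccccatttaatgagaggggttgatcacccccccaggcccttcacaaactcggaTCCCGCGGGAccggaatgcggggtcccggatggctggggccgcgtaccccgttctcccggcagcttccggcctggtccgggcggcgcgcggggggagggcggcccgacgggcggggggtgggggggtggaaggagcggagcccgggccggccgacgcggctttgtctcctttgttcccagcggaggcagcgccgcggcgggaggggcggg
Plxnc1: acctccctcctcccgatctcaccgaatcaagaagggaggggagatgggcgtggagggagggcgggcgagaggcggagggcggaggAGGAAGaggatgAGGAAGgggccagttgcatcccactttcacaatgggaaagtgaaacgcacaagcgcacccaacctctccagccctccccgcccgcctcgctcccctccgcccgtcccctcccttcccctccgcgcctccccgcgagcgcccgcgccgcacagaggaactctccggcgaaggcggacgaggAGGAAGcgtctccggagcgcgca
The Epha5 window held 1 homeodomain core and 1 Ets core, the Plxnb1 window 1 Olf1 and Ebf site, and the Plxnc1 window 3 Ets cores, and no match overlapped another. The Sema3e window held 2 Ets cores and the Plxna3 window 1. Of the 63 members 54 had windows in the RefSeq table, 70 in all. The Olf1 and Ebf site was in 3 of these 70 windows (4.29%), those of Plxnb1, Robo3 and Sema4b, and in 0.904% of all 32851 windows. TAATTA was in 3 member windows (4.29%), against 5.29% of all, and AGGAAG in 28 (40.0%), against 35.4% of all. Members that were higher and members that were lower in GFP-positive cells both held each motif: AGGAAG was in 9 of 27 and 7 of 19 windows, and each of the other motifs in 1 and 1. A match is a description of the letters in the window only.

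Semaphorins are secreted (class 3) or membrane-bound (classes 4 to 6) ligands of plexins. Of the 19 measured, 8 were higher in GFP-positive cells in both treatments (Sema3e, Sema3f, Sema4c, Sema4f, Sema4g, Sema6a, Sema6c and Sema6d) and 4 lower in both (Sema3d, Sema4a, Sema4b and Sema5a), although Sema3f turned to -0.02 in vehicle mice after cyclic loess. The higher and lower semaphorins are 42.1% and 21.1% of the family, beside 25.6% and 16.5% of all genes. Sema6b was lower only in odor mice (-0.33, against -0.14 in vehicle mice) and Sema3c only in vehicle mice (-0.21 in odor mice and -0.44 in vehicle mice). Sema3a, Sema3b, Sema3g, Sema4d and Sema5b passed in neither.

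Sema3e, a secreted ligand that binds Plxnd1 without a neuropilin, had a log2 signal of 9.34, 9.30 and 9.37 in odor GFP-positive cells and 9.27, 9.24 and 9.34 in vehicle GFP-positive cells, against 8.53, 8.10 and 8.03 in odor GFP-negative cells and 8.35, 8.35 and 7.80 in vehicle GFP-negative cells. It was 2.17-fold higher in both treatments (SE 0.151 on the log2 scale, adjusted p = 7.06e-05 and 7.55e-05). Its receptor Plxnd1, known from endothelial cells, was lower in GFP-positive cells, at -0.28 and -0.31, and passed in neither treatment under median centring.

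Sema3f, the class 3 ligand for Nrp2, had 8.91, 9.05 and 8.98 in odor GFP-positive cells and 8.90, 8.96 and 8.95 in vehicle GFP-positive cells, against 8.65, 8.59 and 8.59 in odor GFP-negative cells and 8.70, 8.80 and 8.68 in vehicle GFP-negative cells. It was higher by 0.37 (SE 0.0668, adjusted p = 0.000545) in odor mice and 0.21 (adjusted p = 0.0186) in vehicle mice. The vehicle call ended under a second quantile normalization (0.14, adjusted p = 0.082) and without any one of vehicle GFP-positive replicate 2 or 4 or vehicle GFP-negative replicate 1 or 4 (adjusted p 0.0531 to 0.0638). Sema3a, the class 3 ligand for Nrp1, was at 7.72, 7.71 and 7.71 in odor GFP-positive cells and 7.72, 7.79 and 7.70 in vehicle GFP-positive cells, against 7.83, 7.61 and 7.57 in odor GFP-negative cells and 7.78, 7.64 and 7.47 in vehicle GFP-negative cells. Its fractions overlapped, with differences of 0.05 (adjusted p = 0.683) and 0.11 (adjusted p = 0.386), and the odor value turned to -0.07 after cyclic loess.

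Class 6 semaphorins are transmembrane ligands of plexin-A receptors. Sema6a was higher by 0.65 in odor mice (SE 0.0945, adjusted p = 0.000131) and 0.68 in vehicle mice (adjusted p = 9.09e-05). Its arrays lay between 10.80 and 10.93 in GFP-positive cells and between 10.01 and 10.36 in GFP-negative cells. Sema6c was higher by 0.76 in odor and 0.81 in vehicle mice (SE 0.137, adjusted p = 0.000606 and 0.00041), and Sema6d by 0.35 and 0.32. Sema6c also differed more among the GFP-positive arrays than Sema6a did, from 8.71 to 9.20.

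Class 4 semaphorins moved in both directions. Sema4a, a membrane semaphorin known from antigen-presenting cells, had 6.90, 7.14 and 7.05 in odor GFP-positive cells and 7.30, 7.20 and 7.10 in vehicle GFP-positive cells, against 9.54, 10.04 and 10.21 in odor GFP-negative cells and 9.50, 9.57 and 9.86 in vehicle GFP-negative cells. It was 7.48-fold lower in odor mice (log2 -2.90, SE 0.152, adjusted p = 2.02e-08) and 5.44-fold lower in vehicle mice (log2 -2.44, adjusted p = 9.33e-08). Sema4b was lower, at -0.58 (SE 0.0601, adjusted p = 7.67e-06) in odor and -0.35 (adjusted p = 0.000402) in vehicle mice. The higher members of the class were Sema4c, a ligand of Plxnb2, at 0.61 and 0.58, Sema4g at 0.50 and 0.59, and Sema4f at 0.49 and 0.53. Sema5a, a transmembrane semaphorin with thrombospondin repeats, was lower, at -0.41 and -0.56.

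Both neuropilins, the ligand-binding partners of plexin-A receptors, were higher in GFP-positive cells in both treatments. Nrp2 had 10.29, 10.08 and 9.98 in odor GFP-positive cells and 10.22, 9.92 and 9.98 in vehicle GFP-positive cells, against 9.58, 9.25 and 9.19 in odor GFP-negative cells and 9.52, 9.32 and 9.26 in vehicle GFP-negative cells. It was higher by 0.78 (SE 0.125, adjusted p = 0.000252) in odor and 0.67 (adjusted p = 0.000726) in vehicle mice. Nrp1 had 9.12, 8.97 and 8.97 in odor GFP-positive cells and 9.06, 9.08 and 9.14 in vehicle GFP-positive cells, against 8.70, 8.54 and 8.72 in odor GFP-negative cells and 8.50, 8.57 and 8.38 in vehicle GFP-negative cells. It was higher by 0.36 (SE 0.0783, adjusted p = 0.00198) in odor and 0.61 (adjusted p = 5.17e-05) in vehicle mice, and the odor call ended after cyclic loess (0.16, adjusted p = 0.0522). Neither neuropilin's fractions overlapped in either treatment.

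Of the 9 plexins, 6 were higher in GFP-positive cells in both treatments (66.7%) and 2 lower (22.2%), beside 25.6% and 16.5% of all genes. All 3 plexin-B receptors were higher: Plxnb1 by 0.56 and 0.40, Plxnb2 by 0.41 and 0.42 and Plxnb3 by 0.55 and 0.46. After cyclic loess Plxnb2 passed in neither treatment and Plxnb1 no longer in vehicle mice. Of the plexin-A receptors, Plxna1, Plxna3 and Plxna4 were higher in both treatments and Plxna2 passed in neither.

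Plxna3, which signals Sema3f together with Nrp2, had 10.15, 10.26 and 10.03 in odor GFP-positive cells and 10.24, 10.19 and 10.05 in vehicle GFP-positive cells, against 9.47, 9.01 and 8.87 in odor GFP-negative cells and 9.40, 9.37 and 8.93 in vehicle GFP-negative cells. It was 2.04-fold higher in odor mice (log2 1.03, SE 0.155, adjusted p = 0.000158) and 1.9-fold in vehicle mice (log2 0.93, adjusted p = 0.000348). Plxna1, which pairs with Nrp1, was higher by 0.64 and 0.58 (SE 0.102, adjusted p = 0.000223 and 0.000483). Plxna4 was higher by the same amounts, 0.64 and 0.58 (SE 0.092, adjusted p = 0.000111 and 0.000257). For both genes every GFP-positive array lay above every GFP-negative array.

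Plxnc1, the receptor of Sema7a and known from leukocytes as well as neurons, had 5.72, 6.19 and 6.08 in odor GFP-positive cells and 6.27, 5.96 and 6.07 in vehicle GFP-positive cells, against 8.28, 8.91 and 9.20 in odor GFP-negative cells and 8.42, 8.45 and 8.82 in vehicle GFP-negative cells. It was lower, with a measured log2 difference of -2.80 in odor mice (SE 0.206, adjusted p = 3.46e-07) and -2.46 in vehicle mice (adjusted p = 1.28e-06). In GFP-positive cells its signal was around or below the lower quartile of all genes, so no fold is given.

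Slits and Robos also divided by member. Slit1, the Slit of the dorsal to ventral axon order, had 10.04, 10.06 and 9.97 in odor GFP-positive cells and 10.13, 10.01 and 9.99 in vehicle GFP-positive cells, against 9.38, 9.05 and 8.996 in odor GFP-negative cells and 9.41, 9.33 and 8.95 in vehicle GFP-negative cells. It was 1.84-fold higher in odor mice (log2 0.88, SE 0.125, adjusted p = 0.0001) and 1.75-fold in vehicle mice (log2 0.81, adjusted p = 0.000201). Slit2 went the other way and had 6.99, 7.03 and 7.02 in odor GFP-positive cells and 6.99, 7.05 and 7.19 in vehicle GFP-positive cells, against 7.21, 7.51 and 7.51 in odor GFP-negative cells and 7.33, 7.50 and 7.28 in vehicle GFP-negative cells. It was lower, at -0.39 (SE 0.0958, adjusted p = 0.00432) in odor and -0.29 (adjusted p = 0.0235) in vehicle mice. The vehicle call of Slit2 ended under a second quantile normalization (-0.13), under median centring, and without vehicle GFP-positive replicate 1 (adjusted p = 0.0914), vehicle GFP-positive replicate 2 (0.0684) or vehicle GFP-negative replicate 2 (0.0951). Slit3 passed in neither treatment.

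The Slit receptors Robo1 and Robo2 were higher in both treatments, and Robo3 and Robo4 passed in neither. Robo1 had 10.50, 10.45 and 10.51 in odor GFP-positive cells and 10.48, 10.46 and 10.56 in vehicle GFP-positive cells, against 10.05, 10.06 and 9.86 in odor GFP-negative cells and 10.06, 10.01 and 9.93 in vehicle GFP-negative cells. It was higher by 0.50 in both treatments (SE 0.0736, adjusted p = 0.000145 in odor and 0.000143 in vehicle mice). Robo2 had 11.34, 11.45 and 11.40 in odor GFP-positive cells and 11.30, 11.55 and 11.46 in vehicle GFP-positive cells, against 11.15, 10.85 and 10.77 in odor GFP-negative cells and 10.96, 11.02 and 10.78 in vehicle GFP-negative cells. It was higher by 0.48 (SE 0.106, adjusted p = 0.00238) in odor and 0.52 (adjusted p = 0.0014) in vehicle mice, and after cyclic loess the odor call ended (0.18, adjusted p = 0.0765). Robo3 stayed below the lower quartile on all 12 arrays, and Robo4 is known from endothelial cells.

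No netrin was higher in GFP-positive cells. Ntn1, the secreted ligand of Dcc, had 7.21, 7.34 and 7.17 in odor GFP-positive cells and 7.02, 7.36 and 7.10 in vehicle GFP-positive cells, against 7.48, 7.62 and 7.47 in odor GFP-negative cells and 7.76, 7.60 and 7.63 in vehicle GFP-negative cells. It was lower, at -0.28 (SE 0.0951, adjusted p = 0.026) in odor and -0.51 (adjusted p = 0.000811) in vehicle mice. The odor call ended under a second quantile normalization (-0.15), under median centring (-0.14), and without odor GFP-positive replicate 2 (adjusted p = 0.0714), odor GFP-positive replicate 4 (0.09) or odor GFP-negative replicate 3 (0.0807). Ntn4, a netrin of basement membranes, was at -0.11 in odor mice (adjusted p = 0.408) and -0.34 in vehicle mice (adjusted p = 0.0159), lower by the test only in vehicle mice, and Ntn3 and Ntn5 passed in neither.

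Dcc had 6.33, 6.45 and 6.26 in odor GFP-positive cells and 6.28, 6.53 and 6.40 in vehicle GFP-positive cells, against 6.08, 6.30 and 6.10 in odor GFP-negative cells and 6.18, 6.43 and 6.42 in vehicle GFP-negative cells. These values are near the lower quartile and the fractions overlapped, with differences of 0.19 (adjusted p = 0.129) and 0.06 (adjusted p = 0.671). Over all families 5 of 63 members, Epha3, Epha6, Ntn5, Robo3 and Sema3d, were below the lower quartile of the tested genes on all 12 arrays, as were 3823 of 19938 genes. Sema3d nevertheless passed in both treatments, at -0.36 and -0.33.

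Genes set beside the guidance receptors were counted from 4 lists. Of all genes tested, 25.6% were higher and 16.5% lower in both treatments. Another 15 genes outside the members were listed with the netrin and Slit pathways, and not all of them are receptors. Of these, 7 were higher and 2 lower in GFP-positive cells in both treatments. Among the higher were Dscam, a receptor for netrin, at 0.76 in odor and 0.69 in vehicle mice, Unc5b at 0.75 in both, and Neo1, a relative of Dcc, at 0.60 and 0.66. Of 20 genes listed as semaphorin co-receptors and effectors, 9 were higher and 8 lower. Those that moved most were all lower. They were the tyrosine kinase Fes (-1.99 and -1.70), Plxdc2 (-1.56 and -1.45) and Mical1, an oxidase that acts on actin (-1.36 and -1.23). The list also took in Plxdc1 and Plxdc2, whose part in semaphorin signalling was not tested. Of 18 Eph and Robo effectors 7 were higher and 5 lower in both treatments, with the exchange factor Vav3 at -1.79 and -1.60, the Rac-inactivating Chn2 at -1.10 and -1.11, and the kinase Pak3 at 0.86 and 0.84.

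The fourth list held genes of olfactory axon sorting and adhesion, and 11 of its 15 tested genes were higher and 1 lower in both treatments. Pcdh10, a protocadherin, was higher by 1.43 in odor and 1.23 in vehicle mice, Kirrel2, an adhesion molecule whose level in these neurons follows activity, by 1.35 and 1.25, and Ncam2 by 0.81 and 0.86. Gap43, a marker of growing axons in immature neurons, was the gene that was lower, at -0.62 and -0.74. The immature neuron markers as a list were divided, with 5 of 10 higher and 4 lower in both treatments.

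Because the mature neuron markers themselves differed between the fractions, the arrays were also centred on the mean of the 10 mature neuron markers, an alternative added after seeing the data. The guidance genes are then read relative to those markers. Within a treatment this lowers the sort difference of every gene by the same amount. A small positive difference on the deposited scale therefore turns negative by the centring alone, and the order of the genes stays the same. The markers averaged 12.83 to 12.88 on the GFP-positive arrays, where the highest value on any array was 14.125. Whether signals that high follow abundance as those of the guidance genes do was not tested. The median of all genes moved to -0.37 in odor and -0.43 in vehicle mice, 5 members were higher and 32 lower in odor mice, and 7 were higher and 39 lower in vehicle mice. These are 7.94% and 50.8% of the members in odor mice, where 5.11% of all genes were higher and 60.7% lower, and 11.1% and 61.9% in vehicle mice, where 5.94% of all genes were higher and 66.9% lower. The members that were higher in both treatments were Epha5 (0.86 and 0.87), Epha7 (0.71 and 0.79), Sema3e (0.61 and 0.64), Plxna3 (0.52 and 0.45) and Slit1 (0.38 and 0.33). Of the 24 members that were higher in both treatments on the deposited scale, 12 lay below 0 in at least 1 treatment on this one. Efna3 (-0.03 and -0.10), Sema3f (-0.13 and -0.27), Plxnb2 (-0.09 and -0.06) and Sema6d (-0.16 and -0.17) were below 0 in both treatments, Nrp1 (-0.14), Robo1, Robo2, Sema4f and Sema4g in odor mice alone, and Efna2, Plxnb1 (-0.09) and Plxnb3 in vehicle mice alone.

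Within the GFP-negative fraction the arrays were not alike, and several guidance genes with large sort differences, though not all, moved together with marker lists. The mean log2 signal of the 10 mature neuron markers was 12.52, 12.29 and 12.20 in odor GFP-negative cells and 12.46, 12.44 and 12.21 in vehicle GFP-negative cells, whereas it stayed between 12.83 and 12.88 on all 6 GFP-positive arrays. That of the 10 macrophage markers was 9.86, 10.30 and 10.51 in odor GFP-negative cells and 9.94, 10.00 and 10.22 in vehicle GFP-negative cells, against 7.19 to 7.63 in GFP-positive cells. Epha5, Epha7, Sema3e, Plxna3 and Slit1 had their highest odor GFP-negative value in pool 2 and their lowest vehicle GFP-negative value in pool 4, as the mature neuron markers did. That pattern was not particular to mature neuron markers. The mean of the immature neuron markers had it too, with 10.35, 10.02 and 10.06 in odor and 10.19, 10.36 and 10.10 in vehicle GFP-negative cells. So did the respiratory ciliated markers (7.11, 6.95 and 6.95, and 7.17, 7.11 and 7.04). Bowman's gland markers also had it (9.99, 9.95 and 9.77, and 10.21, 9.72 and 9.70). Sema4a and Plxnc1 had their lowest odor GFP-negative value in pool 2 and their highest vehicle GFP-negative value in pool 4, as the macrophage markers did. The mean of the 10 neutrophil markers followed the same order, with 11.86, 12.25 and 12.30 in odor GFP-negative cells and 11.86, 11.93 and 11.94 in vehicle GFP-negative cells, and so did that of the 8 lymphoid markers, with 9.28, 9.57 and 9.74 and with 9.19, 9.37 and 9.37. Efnb2 and Sema6c followed neither pattern in full. Efnb2 had its lowest odor GFP-negative value in pool 2 (7.26) and its lowest vehicle GFP-negative value in pool 4 (7.51). Sema6c had its highest odor GFP-negative value in pool 2 (8.30). Its lowest vehicle GFP-negative value was in pool 1 (8.085), close to that of pool 4 (8.095). The part of the listed cell types in the sort differences was not tested. On the GFP-positive arrays Sema4a (6.90) and Plxnc1 (5.72) had their lowest odor value in pool 2, and Slit1 (9.99) and Plxna3 (10.05) their lowest vehicle value in pool 4. Epha5 had the lowest of its odor GFP-positive values in pool 2 (9.71) and the highest of its vehicle GFP-positive values in pool 4 (9.88).

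**Figure D3:**
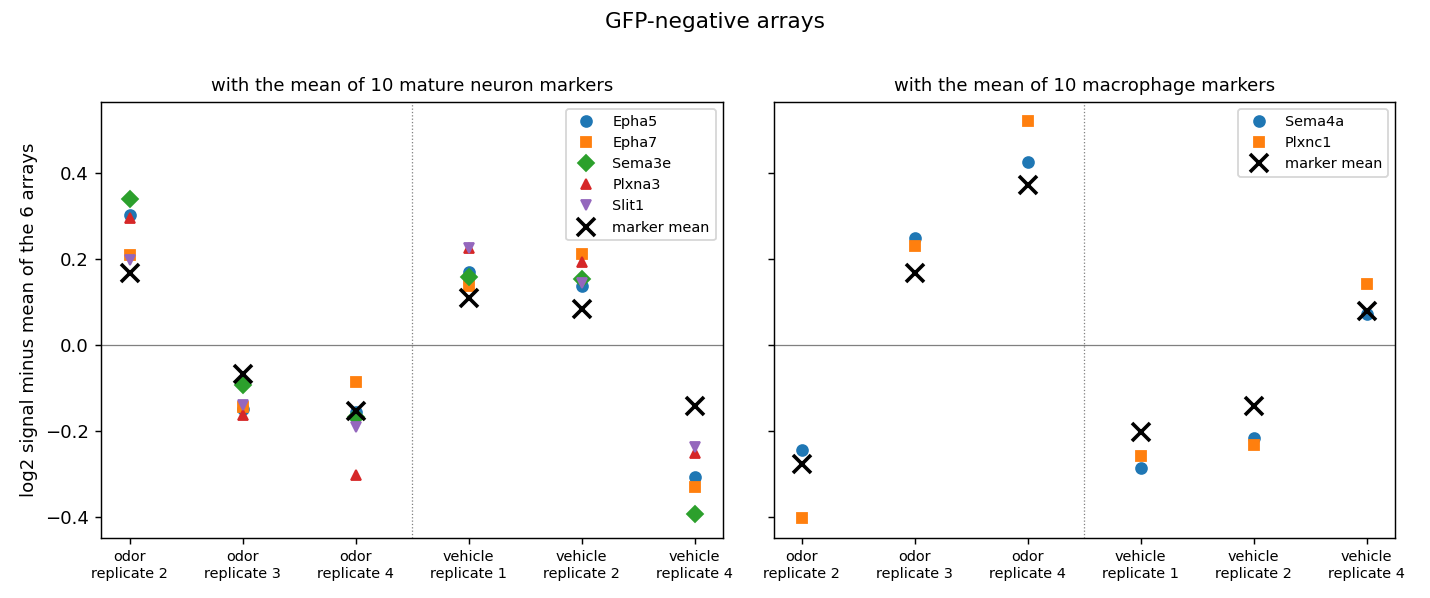
Log2 signal minus the gene's mean over the 6 GFP-negative arrays (vertical axis) for Epha5, Epha7, Sema3e, Plxna3 and Slit1 beside the mean of the 10 mature neuron markers, and for Sema4a and Plxnc1 beside the mean of the 10 macrophage markers, by pool. Odor GFP-negative pool 2 has the highest Epha5 value, 8.68, and the lowest Sema4a value of its group, 9.54, and vehicle GFP-negative pool 4 has the lowest Epha5 value, 8.07.

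Odor exposure was compared with vehicle within each fraction, the question the assay was built for. In GFP-positive cells 0 of 63 members passed (limma, adjusted p), where 0.00502% of all genes did, and 0 members had an unadjusted p under 0.05, as 259 of all 19938 genes (1.3%) did. The odor minus vehicle differences of the members ran from -0.17 to 0.15 with a median of -0.00. The 95% intervals differed in width between members: their outermost bounds were -0.55, for Plxnc1, and 0.42, for Efnb2, while that of Sema4b ran from -0.12 to 0.14. Each interval rests on a spread shared by all 4 groups, so it also carries that of the GFP-negative arrays. For Plxnc1 the SD was 0.246 and 0.156 in odor and vehicle GFP-positive cells, against 0.473 and 0.225 in GFP-negative cells. For Sema4b the order was the reverse, 0.024 and 0.05 against 0.013 and 0.038. With the odor and vehicle GFP-positive groups fitted alone, 0 of 19938 genes passed (limma, adjusted p). Efna5 stood first by unadjusted p, at -0.16 (95% interval -0.32 to 0.01); its 3 odor GFP-positive values, 11.13 to 11.16, lay below the 3 vehicle GFP-positive values, 11.24 to 11.37. Ephb6 was the other member whose groups did not overlap, with 7.26, 7.24 and 7.37 in odor GFP-positive cells, against 7.21, 7.10 and 7.24 in vehicle GFP-positive cells and a difference of 0.11 (95% interval -0.08 to 0.29). These 2 are 3.17% of the members, while 7.93% of all genes had groups that did not overlap, 4.49% higher and 3.45% lower in odor mice. Sema4f (-0.16), Plxnd1 (0.12) and Efnb2 (0.15) completed the first 5 by p, and all had overlapping groups.

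In GFP-negative cells 0 members passed and 0.0% of all genes did; the smallest adjusted p of a member was 0.732 (limma). An unadjusted p under 0.05 was seen for 6 members and for 1301 of all 19938 genes (6.53%). The differences ran from -0.23 to 0.29 with a median of -0.06, and their 95% intervals reached from -0.45, for Plxna3, to 0.68, for Plxnc1. Sema4b, a membrane semaphorin of class 4, stood first and was at 9.34, 9.35 and 9.37 in odor GFP-negative cells, against 9.10, 9.16 and 9.09 in vehicle GFP-negative cells. The groups were well apart and the difference was 0.24 (SE 0.0601, 95% interval 0.11 to 0.37), yet it failed the adjustment over all genes (limma, adjusted p = 0.732). In GFP-positive cells Sema4b was at 8.75, 8.80 and 8.77 in odor mice, against 8.77, 8.81 and 8.71 in vehicle mice.

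Of the other 5 members with an unadjusted p under 0.05 in GFP-negative cells, Nrp1 was at 0.17 (95% interval 0.00 to 0.34) and the rest were below 0. Efna5 was at -0.18 (95% interval -0.35 to -0.02), with 10.77, 10.62 and 10.52 in odor GFP-negative cells, against 10.88, 10.83 and 10.74 in vehicle GFP-negative cells, so its values were below those of vehicle mice on average in both fractions without passing in either. Sema3b, a secreted class 3 semaphorin, was at -0.22 (95% interval -0.42 to -0.03), Sema3c at -0.23 (-0.44 to -0.01) and Sema5b at -0.19 (-0.36 to -0.01). The groups did not overlap for 6 of 63 members (9.52%), Sema4b higher in odor mice and Ephb1, Sema3b, Sema3c, Sema3f and Sema5b lower; 7.44% of all genes had groups that did not overlap, 2.79% higher and 4.65% lower in odor mice. The odor pools and the vehicle pools also differed among themselves in the marker lists given above, whose part in these values was not tested.

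**Figure D4:**
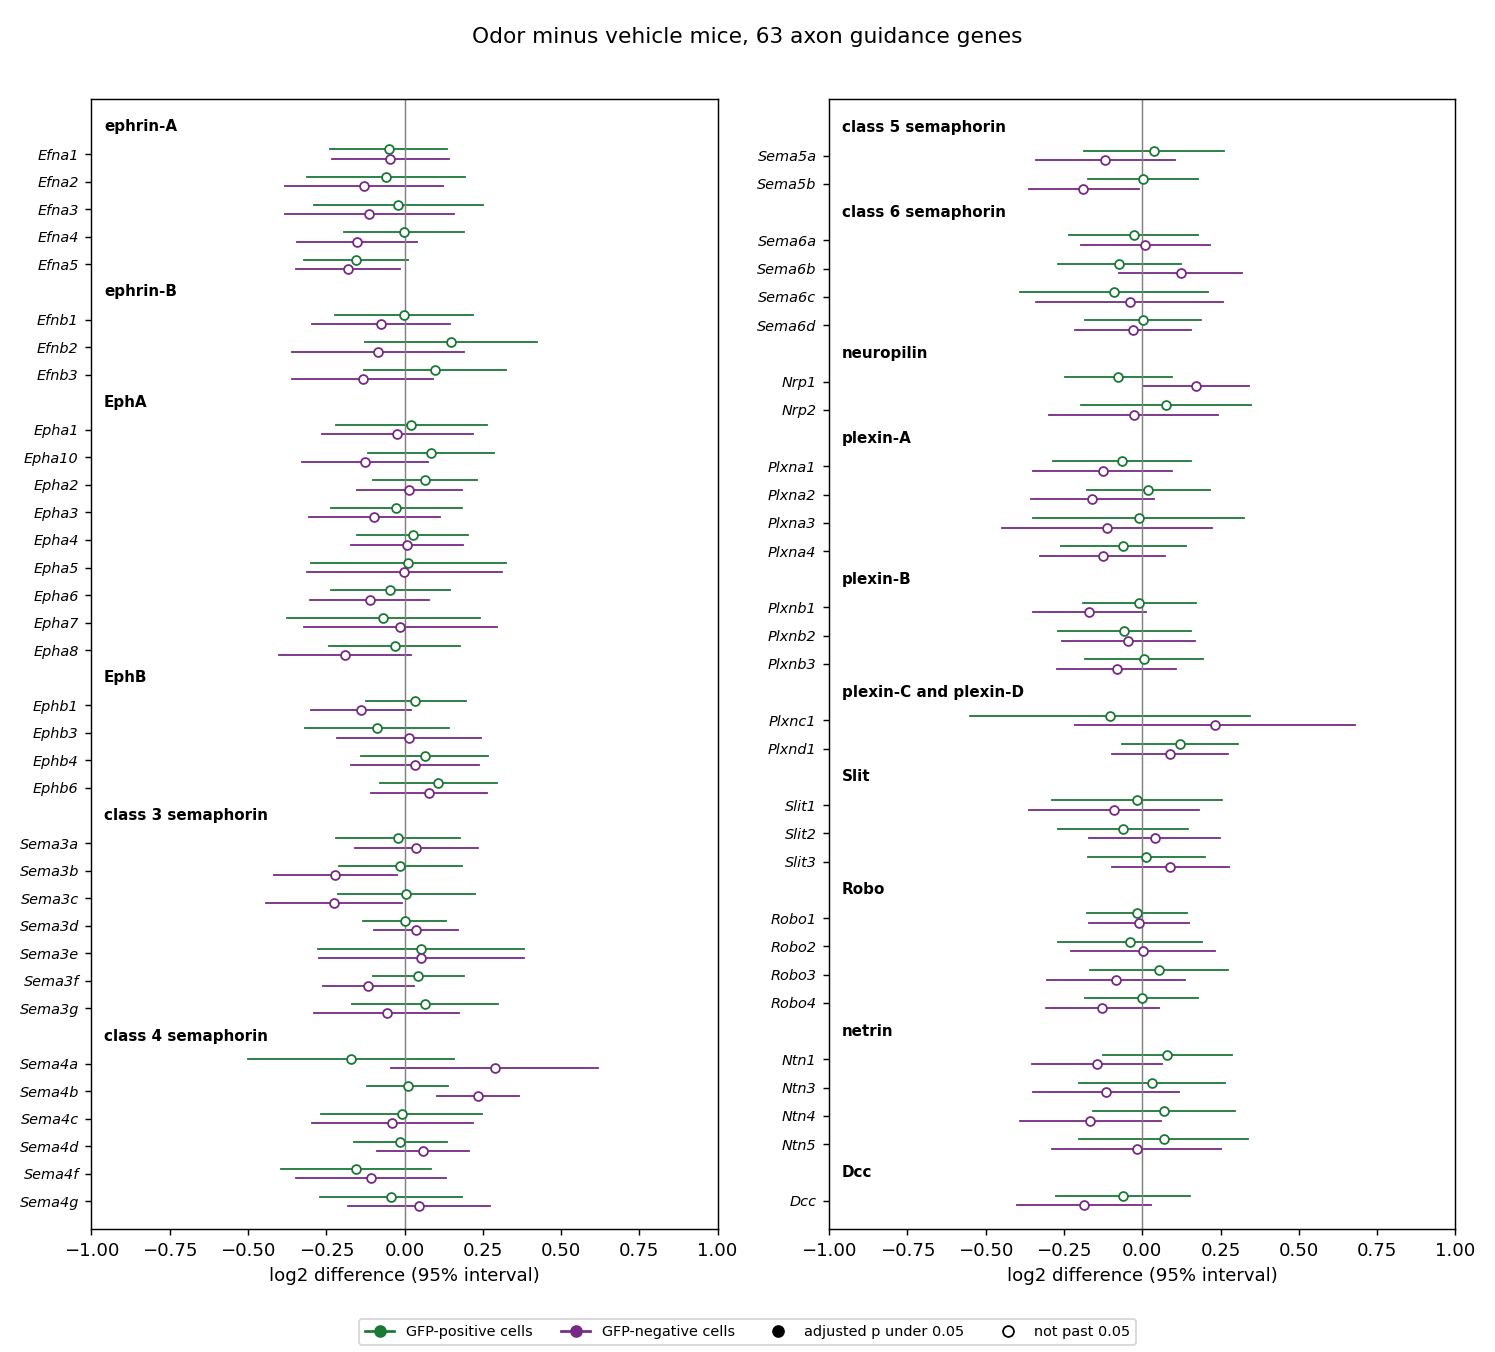
Log2 difference of odor minus vehicle mice for all 63 members, grouped by family, with GFP-positive and GFP-negative cells in separate colours; bars are 95% intervals of the limma fit and filled points would mark an adjusted p under 0.05. No point is filled, all GFP-positive differences lie between -0.17 and 0.15, and Sema4b in GFP-negative cells, at 0.24, has an interval that stays above 0.

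Whether the sort difference itself changed with odor was tested as an interaction. It passed for 0 of 63 members, with a smallest adjusted p of 0.971 (limma), and for 0.00502% of all genes; 2 members and 843 of 19938 genes (4.23%) had an unadjusted p under 0.05. These members were Sema4b, with a sort difference in odor mice minus that in vehicle mice of -0.23 (SE 0.085, 95% interval -0.41 to -0.04), and Nrp1, with -0.25 (-0.49 to -0.01). The difference within a pool was -0.60 to -0.55 in odor and -0.38 to -0.33 in vehicle mice for Sema4b. For Nrp1 it was 0.25 to 0.43 in odor and 0.51 to 0.75 in vehicle mice. These ranges did not overlap for either gene, but how many of all genes show this was not counted. Sema4a (-0.46, 95% interval -0.93 to 0.01), Sema3f (0.16, -0.05 to 0.37) and Ephb1 (0.17, -0.05 to 0.40) followed. The members that passed the sort test in 1 treatment alone, Efnb3, Epha3, Epha8, Sema6b, Ntn4 and Sema3c, were thus not shown to differ between the treatments.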

How the data were processed

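Signals were deposited by the authors as log2 values per probe set. Per the submitters' processing notes they come from Affymetrix Expression Console, with no version, summarization or background method given in the sources used here. Per the labels, biotinylated cRNA was made from 50 to 100 ng of total RNA, and each sample pooled 3 mice. Of 35556 probe sets 21789 had 1 gene symbol, 1621 had several and 12146 none; single-symbol probe sets were kept, and the brightest on average stood for each of 19938 genes. Among the 63 members 4 had more than 1 probe set, and all gene IDs were in the gene reference. No filter on low values was applied. The number of arrays, not a read depth, limits the precision. Probes differ between genes, so signals of different genes were ranked only to choose names.

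All 4 groups were fitted together in limma 3.58.1 (R 4.3.3) without a replicate block, with two-sided moderated tests and Benjamini-Hochberg adjustment over all genes at 0.05; errors are standard errors of the fit. The fit was tested on simulated data. Tables were made in Python 3.11.15 with pandas 2.3.3 and figures with matplotlib 3.10.9. Both fractions of a numbered pool come from the same 3 mice, so pool numbers pair the sort comparison by origin; deviations from the group means correlated at 0.07 to 0.25 within pools and at -0.18 to 0.06 across pools. The members, the gene and marker lists, the tests and the naming rule were chosen with earlier results of these data known. The rule named, per family, up to 4 members with the largest sort difference in both treatments and the one with the highest mean, 5 with the smallest p for odor minus vehicle in each fraction and for the interaction, 10 genes of olfactory axon wiring, S100a5 and Omp, and 3 genes of each pathway list; other members are named to account for all of them, and Gap43 was named after its values were seen. Alternatives were 3 rescalings, a filter on low genes, the mean of a gene's probe sets, array weights, a robust fit with trend, pairs of groups fitted alone, replicate blocks and each array left out.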

Additional observations from a re-analysis of the deposited data

How the results depend on the processing

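The counts of members called in the 5 comparisons stayed within 1.5 times under every alternative of the planned set. Leaving out 1 array at a time gave 25 to 28 members higher and 13 to 16 lower in GFP-positive cells in odor mice, and 22 to 24 higher and 15 to 17 lower in vehicle mice; the odor minus vehicle and interaction counts remained 0 to 0. With the pool as a replicate block, the pairing by origin, the counts were again 27 and 16 in odor and 24 and 17 in vehicle mice. No call of a named gene changed under that block. The title or code number, which odor and vehicle pools share only as a number, was a replicate block for odor minus vehicle alone. There 0 members passed in either fraction, as without a block. Same-numbered odor and vehicle arrays correlated at -0.21 to 0.44. Centring on mature neuron markers, chosen after seeing the data, moved the counts to 5 higher and 32 lower in odor mice and 7 higher and 39 lower in vehicle mice. Over all genes, the calls higher in GFP-positive cells, 6687 in odor and 5958 in vehicle mice, became 11702 and 9348 under median centring, 3835 and 3857 after cyclic loess, and 1019 and 1185 under the neuron centring, where the lower calls became 12095 and 13335 in place of 3729 and 3619. Without odor GFP-negative replicate 2, limma called 15 genes for odor minus vehicle in GFP-negative cells, against 0 with all arrays. Over 1535 recomputed values of named genes, 1464 kept direction and side of the threshold, 45 no longer passed, 5 newly passed and 21 changed sign. Under the neuron centring the sign turned for Dcc (-0.32 in odor, -0.42 in vehicle mice), Sema3a (-0.46, -0.38), Sema3f (-0.13, -0.27), S100a5 (-0.20, -0.29), Omp (-0.18, -0.17) and Efna3 (-0.030, -0.102), for Nrp1 (-0.14), Robo1 (-0.009) and Robo2 (-0.028) in odor mice, and for Efna2 (-0.028) in vehicle mice. Omp is itself among the mature neuron markers that set this centring. Other members that were higher also turned: Plxnb2 (-0.094, -0.061) and Sema6d (-0.157, -0.166), Sema4f (-0.019) and Sema4g (-0.007) in odor mice, and Plxnb1 (-0.085) and Plxnb3 (-0.021) in vehicle mice. After cyclic loess it turned for Sema3a in odor (-0.068) and Sema3f in vehicle mice (-0.021). Values near 0 also turned for Dcc in vehicle mice without vehicle GFP-negative replicate 1 (-0.021) or vehicle GFP-positive replicate 2 (-0.002), and for Sema3a in odor mice without odor GFP-negative replicate 4 (-0.006); over all arrays left out in turn Dcc ran from -0.021 to 0.122 and Sema3a from -0.006 to 0.127. The turns under the neuron centring follow from its arithmetic. It lowers every gene's sort difference by the same amount within a treatment, so small positive differences fall below 0. They say nothing further about single genes. The cause of the other turns was not tested. The odor call of S100a5 ended without odor GFP-positive replicate 2 (adjusted p = 0.0566) or odor GFP-negative replicate 4 (0.0726) in limma.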
